A study of Mus musculus with 11 samples.

Results

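The genes described here are the 10 that carry VEGF signalling and mark the blood vessel lining of mouse pancreatic islets: *Vegfa*, *Kdr*, *Flt1*, *Angpt2*, *Tek*, *Tie1*, *Pecam1*, *Cdh5*, *Plvap* and *Esm1*. They were chosen by gene symbol, and all 10 were found among the 55536 genes of each table. Islet RNA came from wild-type C57BL/6J females that entered the study at 9 weeks of age. The libraries labelled multipara came from mice with 3 consecutive pregnancies, studied no sooner than 3 weeks after their last litter, and those labelled virgin from age-matched littermates that were not mated. S-961, an insulin receptor antagonist, was given at 100 nmol/kg 2 times a day for 3 days to the mice of 3 virgin and 4 multipara libraries, and 2 virgin and 2 multipara libraries came from untreated mice. Whether the untreated mice were injected with vehicle was not given in the sources used here, so S-961 and the injections cannot be told apart. Whether 1 library was 1 animal or a pool was not given in the sources used here, so p-values measure the spread between libraries.

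Islets are threaded by dense, fenestrated capillaries. Beta cells secrete VEGF-A, which acts on the endothelial receptor VEGFR2 (*Kdr*), while VEGFR1 (*Flt1*) binds the same ligand tightly and signals weakly. *Tek* encodes the receptor Tie2, *Angpt2* a ligand that endothelial cells release to modulate it, and *Tie1* its partner receptor. PECAM-1 and VE-cadherin (*Cdh5*) hold endothelial cells together, PLVAP forms the diaphragms of the fenestrae, and endocan (*Esm1*) is a secreted proteoglycan that sprouting tip cells produce in response to VEGF.

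Of the members for which RefSeq gives a start, on GRCm38.p6, *Vegfa*, *Esm1* and *Tie1* were those called with S-961 in at least 1 label. Their 120 bases before the start are shown because these genes moved in different directions. Capitals mark exact strings of letters, each searched on both strands. These were GGAAG, a form of the core of binding motifs of the endothelial ETS factors, and GGGCGG, the GC box. The others were ACGTG, a form of the core of the hypoxia response element, and TATAAA. Other forms of these motifs were not searched.
Vegfa, chr17:46032378-46032497, minus strand: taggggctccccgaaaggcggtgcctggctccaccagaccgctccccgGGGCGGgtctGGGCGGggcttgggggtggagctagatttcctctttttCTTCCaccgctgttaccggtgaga
Esm1, chr13:113209539-113209658, plus strand: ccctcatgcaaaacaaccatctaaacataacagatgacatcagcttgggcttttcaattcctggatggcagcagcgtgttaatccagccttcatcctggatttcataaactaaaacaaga
Tie1, chr4:118489850-118489969, minus strand: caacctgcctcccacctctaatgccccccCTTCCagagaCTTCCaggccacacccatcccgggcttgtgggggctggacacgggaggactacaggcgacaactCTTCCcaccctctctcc
The *Vegfa* window held GGGCGG 2 times and GGAAG 1 time, the *Tie1* window held GGAAG 3 times, and the *Esm1* window held none of the 4 exact strings. Over 32851 promoter windows of the same length, 41% held GGAAG, 26.5% GGGCGG, 9.41% ACGTG and 6.34% TATAAA. The *Esm1* window was 41.7% G or C, against 65.8% for *Vegfa* and 64.2% for *Tie1*. Of the other members, *Kdr*, *Flt1* and *Tek* also had an entry, and *Pecam1*, *Cdh5*, *Plvap* and *Angpt2* did not.

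Total counts per library ran from 22028507 to 32234146, and the lowest count of a member in any library was 152, for *Angpt2*. Values in CPM are counts per 1000000 counts of the library, with library totals scaled over the 11 libraries by the TMM method. Some libraries stood apart. Multipara S-961 4 was low in cell cycle genes, at a summed 75.3 CPM over 16 genes, near the virgin S-961 libraries at 76.2 to 94.9 and below the other multipara S-961 libraries at 257 to 583. The paper reports cell cycle genes as lower in multipara than in virgin islets with S-961. Under the deposited labels, these sums ran the other way in every multipara S-961 library but number 4. Why was not tested, and the labels were used as given. Multipara untreated 1 was high in lymphocyte markers, at a summed 263 CPM over 8 genes against 25.7 to 38.3 in the other untreated libraries, and in macrophage markers, at 971 CPM over 10 genes against 202 to 236. It was also high in red blood cell markers, at 2390 CPM over 6 genes against 158 to 488, and in cell cycle genes, at 212 CPM against 67.8 to 81.7. The S-961 libraries also differed from the untreated ones as a group. The 15 acinar markers took 0.226 to 1.66% of counts with S-961 and 0.01 to 0.017% without, and *Ins1* and *Ins2* together took 13.2 to 20.7% and 35.3 to 41.4%. S-961 and the acinar content therefore cannot be told apart: with an acinar score in the model, edgeR called 0 genes in either S-961 comparison, with 1539 and 824 genes at an unadjusted p under 0.05. The globin genes *Hba-a1* and *Hba-a2* had medians of 33.5 and 38.9 CPM with S-961, but 25.4 and 159 CPM without. *Amy2a1*, an acinar marker, was at 150 to 1170 CPM with S-961 and at 0 in every untreated library. Why was not tested, and any difference in handling between these libraries cannot be told apart from S-961. In bulk islets, fewer cells of a type and less RNA per cell cannot be told apart either.

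Compared per kilobase of the longest transcript, *Plvap* was the member with the highest level in untreated virgin islets, at 86.4 ± 13 CPM per kb (SD, n = 2). *Esm1* followed at 72.0 ± 2.25, *Vegfa* at 63.7 ± 4.0 and *Kdr* at 25.2 ± 2.16, and the libraries of these 4 genes did not overlap between neighbours. *Pecam1* at 20.2 ± 1.91 and *Flt1* at 19.7 ± 2.65 overlapped. *Tie1* at 8.78 ± 1.19 and *Cdh5* at 7.15 ± 1.3 overlapped, and so did *Tek* at 2.79 ± 0.0284 and *Angpt2* at 2.62 ± 0.268. With S-961, the order in virgin islets changed at the top. *Vegfa* led at 136.2 ± 5.47 CPM per kb (SD, n = 3), *Plvap* stood at 86.1 ± 12.2, and *Esm1* was at 26.8 ± 4.33, where its libraries overlapped those of *Kdr* at 19.5 ± 3.52. In multipara islets *Vegfa* was at 66.6 ± 9.45 CPM per kb without treatment (n = 2) and 123.7 ± 17.2 with S-961 (n = 4), and *Esm1* at 76.0 ± 18.3 and 27.0 ± 5.44. The islet endothelium was thus present in every library: the 44 other endothelial genes on the list summed to 675 to 941 CPM, and none of them was at 0 throughout a group.

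**Figure D1:**
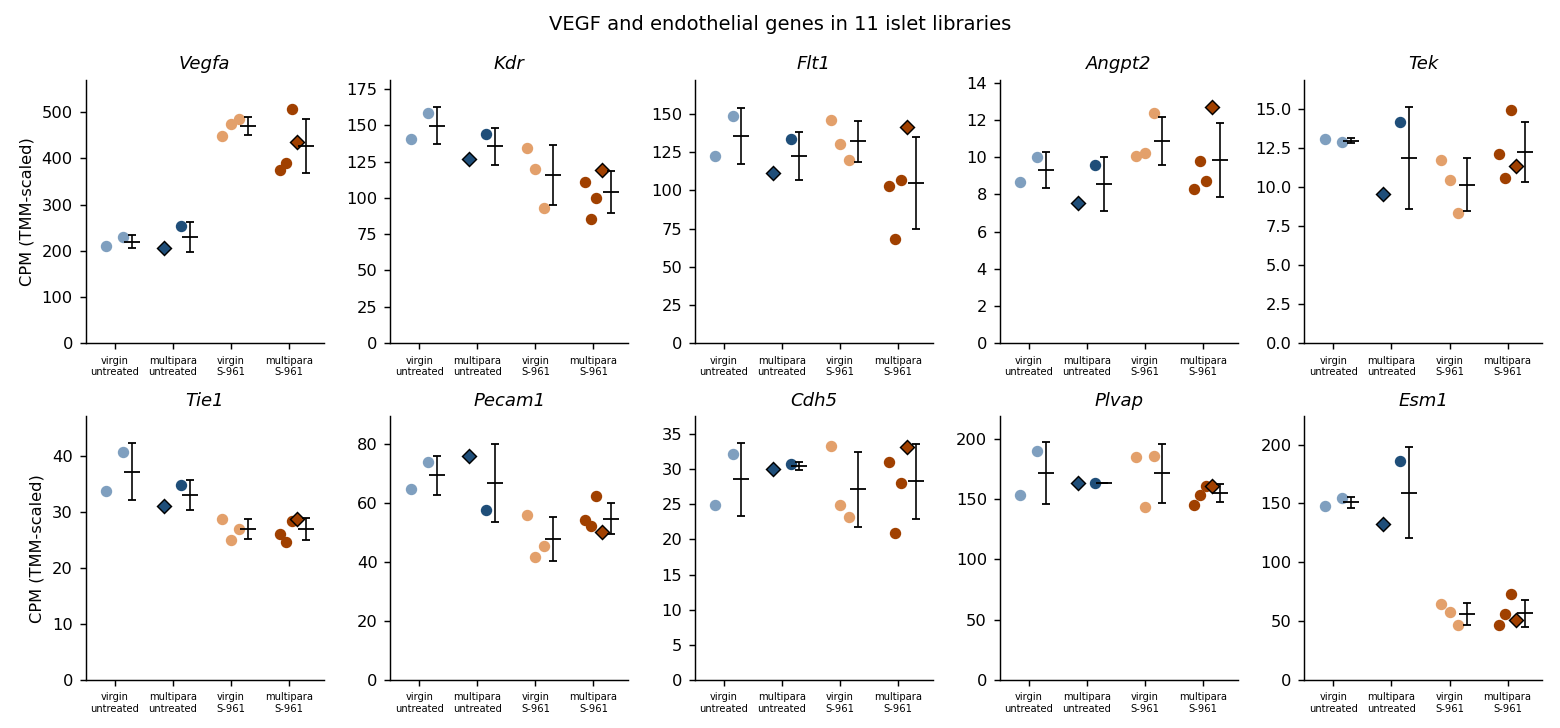
CPM of the 10 members by library in the 4 groups, with each library as a point and the mean and SD as a bar beside it. Diamonds mark multipara S-961 4 and multipara untreated 1. *Vegfa* lies above and *Esm1* below the untreated libraries in all 7 S-961 libraries, from 375 to 507 CPM against 207 to 253 and from 46.3 to 72.6 CPM against 132 to 186.

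With S-961, *Vegfa* rose 2.14-fold in virgin and 1.86-fold in multipara islets, and *Esm1* fell to 0.372 and 0.355 of its untreated level. Neither VEGF receptor was called in either label. In the virgin comparison, 1 of the 10 members was called higher and 3 were called lower, where 18.9% and 17.7% of the 17969 genes tested were called higher and lower. In the multipara comparison, 1 member was called higher and 1 lower, where 18.2% and 19.5% of all genes were. This split depended on the scaling: when counts were scaled by library totals alone, 3 members were called higher and 1 lower in virgin islets and 4 higher and 1 lower in multipara islets, and the counts over all genes went from 3392 higher and 3178 lower to 6408 and 1272 in virgin islets and from 3269 and 3497 to 7791 and 1304 in multipara islets. The median log2 fold change of the members was -0.21 in virgin and -0.17 in multipara islets, and that of all genes -0.04 and 0.03. Calls are edgeR quasi-likelihood tests with a Benjamini-Hochberg adjusted p under 0.05 over all genes. The virgin and multipara groups did not overlap between S-961 and untreated for 7 and 5 members, where 68.4% and 49% of all genes did not. The share of all genes that separated all S-961 from all untreated libraries, over both labels, was not determined.

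*Vegfa*, the ligand, was at 449, 475 and 486 CPM in the virgin S-961 libraries and at 210 and 229 CPM in the untreated virgin libraries. In multipara islets it was at 375, 390, 507 and 435 CPM with S-961 and at 207 and 253 CPM without. The lowest S-961 library of either label was above the highest untreated one. *Vegfa* rose 2.14-fold in virgin islets (95% interval 1.66 to 2.76, edgeR adjusted p = 0.000814) and 1.86-fold in multipara islets (1.46 to 2.37, adjusted p = 0.00178). The acinar content moved with it, and its part in this result was not tested beyond the model above, in which the adjusted p was 0.571 in virgin and 0.98 in multipara islets. Gene-level counts do not separate the 13 annotated *Vegfa* transcripts, which include those of the different VEGF-A isoforms.

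*Kdr*, the main signalling receptor, was at 134, 120 and 93.2 CPM in virgin S-961 and at 140 and 159 CPM in untreated virgin libraries. The multipara libraries held 111, 85.7, 99.8 and 119 CPM with S-961 and 127 and 144 CPM without. All S-961 libraries of a label were below its untreated libraries, yet neither difference passed the test, with folds of 0.774 (95% interval 0.588 to 1.02, adjusted p = 0.132) and 0.767 (0.592 to 0.995, adjusted p = 0.0984). *Flt1*, the decoy receptor, overlapped between treatments in both labels. It was at 146, 131 and 120 CPM in virgin S-961, and its widest group was multipara S-961, at 103, 68.1, 107 and 142 CPM. The untreated libraries held 123 and 148 CPM in virgin and 111 and 134 CPM in multipara mice. The intervals of its fold were 0.668 to 1.42 in virgin and 0.599 to 1.22 in multipara islets.

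Per kilobase, *Angpt2* and *Tek* were the lowest members in each of the 4 groups. *Angpt2* was at 10.05, 10.2 and 12.4 CPM in virgin S-961, 8.29, 9.78, 8.70 and 12.7 CPM in multipara S-961, 8.65 and 9.997 CPM in untreated virgin and 7.55 and 9.58 CPM in untreated multipara libraries. It was not called, with folds of 1.17 (95% interval 0.838 to 1.62) and 1.15 (0.84 to 1.59), but was called higher in both labels when counts were scaled by library totals. *Tek* ranged from 8.35 to 14.95 CPM with S-961 and from 9.56 to 14.2 CPM without, and was not called either, except as higher in multipara islets with that scaling. *Tie1* was steadier within groups. It was at 28.7, 25.0 and 26.9 CPM in virgin S-961 and 26.0, 24.7, 28.3 and 28.7 CPM in multipara S-961, and at 33.6 and 40.7 CPM and 31.1 and 34.8 CPM in the untreated libraries. All 7 S-961 libraries were below all 4 untreated ones, and *Tie1* fell in virgin islets by 0.47 on the log2 scale (SE 0.13, adjusted p = 0.0158). In multipara islets its log2 fold change was -0.29 (SE 0.12, adjusted p = 0.0826). The virgin call was lost without virgin S-961 2 (adjusted p = 0.0606) or virgin untreated 2 (0.197).

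Of the junction and fenestra genes, *Pecam1* fell in virgin islets, from 64.8 and 74.1 CPM to 56.0, 41.7 and 45.6 CPM, by 0.54 on the log2 scale (SE 0.17, adjusted p = 0.0261). This call was lost without virgin S-961 2 or 3 or either untreated virgin library, at adjusted p from 0.0644 to 0.187. In multipara islets *Pecam1* was at 54.4, 52.2, 62.4 and 50.1 CPM with S-961 and at 76.2 and 57.6 CPM without, and the groups overlapped. *Cdh5* spanned 20.98 to 33.3 CPM with S-961 and 24.9 to 32.2 CPM without. *Plvap* spanned 143 to 186 and 153 to 190 CPM. Neither was called, and the fold of *Plvap* was 0.997 in virgin islets (95% interval 0.794 to 1.25) and 0.95 in multipara islets (0.765 to 1.18). Scaled by library totals, *Plvap* was called higher in both labels.

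*Esm1* was at 64.2, 57.9 and 46.3 CPM in virgin S-961 and 148 and 154 CPM in untreated virgin libraries. In multipara mice it was at 46.3, 55.9, 72.6 and 51.2 CPM with S-961 and 132 and 186 CPM without. No S-961 library came near an untreated one. *Esm1* fell by 1.43 on the log2 scale in virgin islets (SE 0.21, adjusted p = 0.000737) and by 1.49 in multipara islets (SE 0.20, adjusted p = 0.000376), levels 2.69 and 2.82 times lower. With the acinar score in the model the adjusted p was 0.548 and 0.98. *Gzmk*, a lymphocyte gene on the opposite strand that overlaps *Esm1*, was at 0 to 1.12 CPM.

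**Figure D2:**
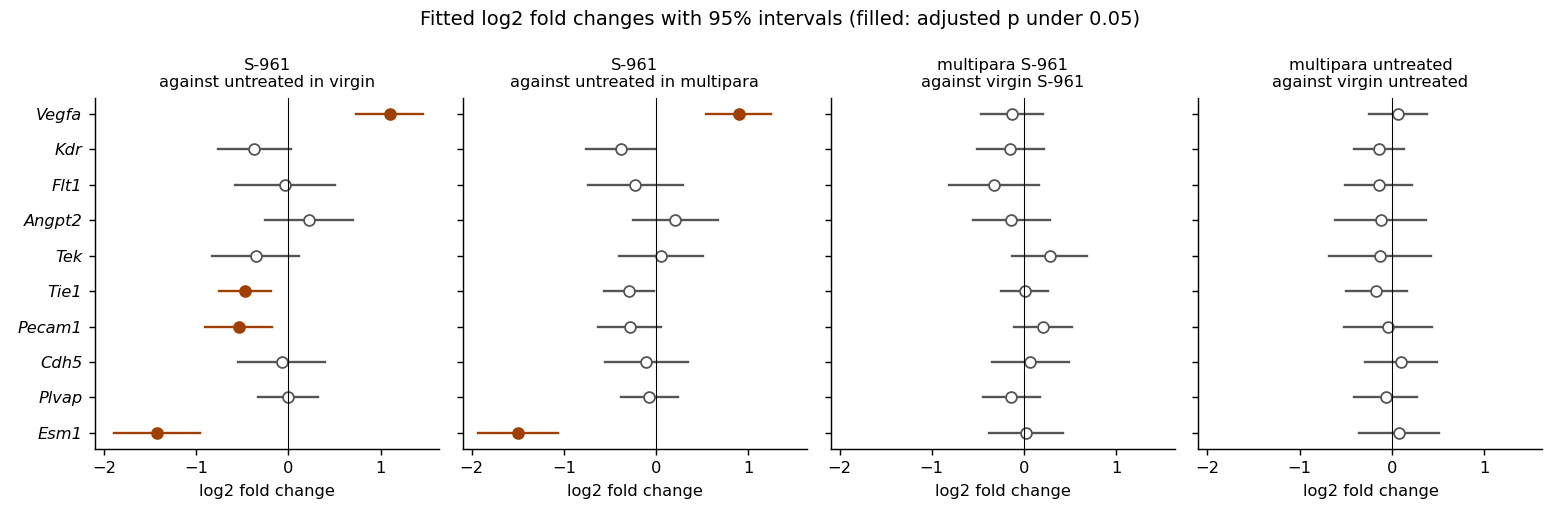
Log2 fold changes of the 10 members with their 95% intervals (edgeR) in 4 comparisons, filled where the adjusted p was under 0.05. *Vegfa* (1.10 and 0.89) and *Esm1* (-1.43 and -1.49) are filled in both S-961 comparisons, *Tie1* and *Pecam1* in virgin islets, and no member in the parity comparisons.

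The scaling of the libraries mattered for the smaller changes. When counts were scaled by library totals alone, the median log2 fold change over all genes with S-961 was 0.43 in virgin and 0.61 in multipara islets. *Vegfa* was then at 1.56 and 1.49 and *Esm1* at -0.96 and -0.88 on the log2 scale, all called. Relative to those medians, *Vegfa* was at 1.13 and 0.89 and *Esm1* at -1.39 and -1.49. *Pecam1* at -0.071 and *Tie1* at 0.00056 in virgin islets were no longer called, and *Kdr* turned to 0.10 and 0.21. Other members became called as higher with this scaling. *Angpt2* was at 0.69 and 0.79 (adjusted p = 0.016 and 0.00585), *Plvap* at 0.46 and 0.51 (adjusted p = 0.0378 and 0.0181) and *Tek* in multipara islets at 0.66 (adjusted p = 0.0389). Relative to the medians of all genes, *Angpt2* was at 0.26 and 0.18, *Plvap* at 0.031 and -0.10 and *Tek* in multipara islets at 0.053.

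Ratios of counts within a library do not depend on scaling, and were chosen after the values were seen. The ratio of *Vegfa* to *Kdr* was 3.34 to 5.21 in virgin S-961, 3.39 to 5.08 in multipara S-961, 1.45 to 1.49 in untreated virgin and 1.63 to 1.75 in untreated multipara libraries. The lowest S-961 ratio was above the highest untreated one. The ratio of *Esm1* to *Plvap* was 0.249 to 0.452 over the S-961 libraries and 0.81 to 1.14 over the untreated ones, and that of *Esm1* to *Kdr* was 0.419 to 0.728 and 0.973 to 1.29. Neither ratio overlapped between treatments. The ratio of the receptors *Kdr* and *Flt1* was 0.779 to 0.921 in virgin S-961, 0.84 to 1.26 in multipara S-961 and 1.07 to 1.15 in untreated libraries. It did not overlap between treatments in virgin islets, but did in multipara islets. The ratio of *Angpt2* to *Tek* was 0.858 to 1.48 in virgin S-961 and 0.661 to 0.775 in untreated virgin libraries, with no overlap. In multipara islets it was 0.582 to 1.12 with S-961 and 0.676 to 0.79 without, and the ranges overlapped.

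**Figure D3:**
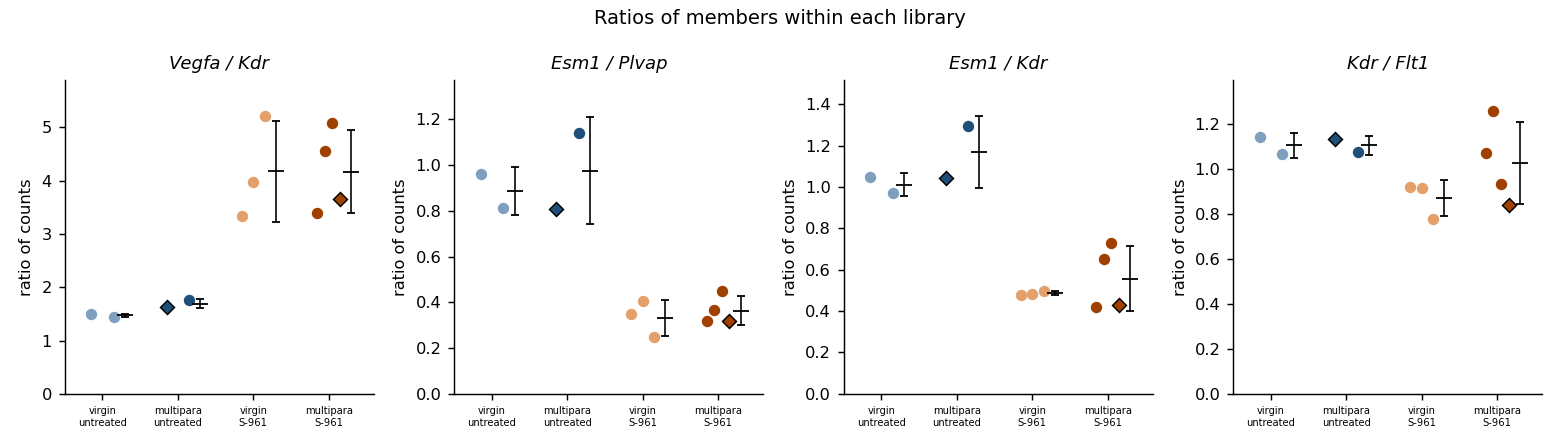
Ratios of the counts of 2 members within each library, by group, with points for libraries (diamonds as multipara S-961 4 and multipara untreated 1) and mean and SD beside them. *Vegfa* to *Kdr* is 3.34 or more in every S-961 library and 1.75 or less in every untreated one, while *Kdr* to *Flt1* overlaps between multipara S-961 and untreated libraries.

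Set against the mean log2 CPM of the other endothelial genes in the same library, *Vegfa* and *Esm1* were the only members that did not overlap between treatments. The share of all genes that did not overlap on this measure was not determined. *Tie1*, which did not overlap in CPM, was 1.26 to 1.49 above that mean with S-961 and 1.20 to 1.67 above it without. *Esm1* was 2.10 to 2.72 above that mean with S-961 and 3.29 to 3.93 above it without, and *Vegfa* 5.11 to 5.66 and 3.94 to 4.37. The mean itself was 3.26 to 3.51 with S-961 and 3.55 to 3.76 without. With this mean as a covariate, *Vegfa* and *Esm1* were called in both labels, and *Tie1* and *Pecam1* in neither. Of all 17969 genes, 4026 were called in virgin and 3468 in multipara islets in that model.

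Parity made no detectable difference to these genes. Between multipara and virgin islets, 0 of the 10 members were called with S-961 and 0 without treatment, where 0% of the 16752 and 0% of the 15813 genes tested were called. At an unadjusted p under 0.05 the counts were 0 of 10 members in both, and 1614 and 889 of all genes. DESeq2 called 369 and 56 genes and 0 members in either. The groups overlapped for all 10 members in both comparisons, where they did not overlap for 8.85% of all genes with S-961 and 36% without. With S-961, the fold of multipara to virgin was 0.913 for *Vegfa* (95% interval 0.725 to 1.15), 0.903 for *Kdr* (0.701 to 1.16), 1.01 for *Esm1* (0.769 to 1.34) and 0.799 for *Flt1* (0.568 to 1.12). Over the 10 members the intervals of the log2 fold change ran from -0.82 to 0.69. Without treatment they ran from -0.68 to 0.52, and the fold was 1.05 for *Vegfa* (0.843 to 1.3) and 1.06 for *Esm1* (0.78 to 1.43). The response to S-961 was not shown to differ with parity: in the interaction, 0 members and 0% of 17969 genes were called, with 1178 genes and 0 members at an unadjusted p under 0.05 and 79 genes by DESeq2. The interaction log2 fold change was -0.20 for *Vegfa* (SE 0.22) and -0.067 for *Esm1* (SE 0.29).

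Without multipara S-961 4, 525 of 16590 genes were called between multipara and virgin islets with S-961, 447 higher and 78 lower in multipara islets. Still 0 members were called, *Flt1* having the lowest adjusted p of the 10, 0.252, at a log2 fold change of -0.49. In that comparison some vascular genes were called, and whether they exceeded the share of all genes was not tested. None of those named next was called with all libraries (edgeR adjusted p from 0.325 to 0.521). *Aplnr*, the apelin receptor, was higher in multipara islets by 1.77 on the log2 scale (SE 0.36, adjusted p = 0.0387) and *Klf4* by 0.77 (SE 0.14, adjusted p = 0.0293). *Igfbp3*, a secreted binding protein of insulin-like growth factors, was lower by 0.99 (SE 0.19, adjusted p = 0.0336), and *Timp3*, a protease inhibitor that also blocks VEGFR2, by 0.75 (SE 0.15, adjusted p = 0.0415). The 8 stromal markers summed to 192 to 368 CPM in the multipara S-961 libraries and 116 to 125 CPM in the virgin ones, and their part in this result was not tested. Leaving out 1 multipara untreated library leaves that group with a single library, whose spread is then taken from the virgin pair alone. With multipara untreated 1 as that library 1749 genes were called between the untreated groups, with multipara untreated 2 57 genes, and 0 members in either case.

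None of the other VEGF ligands and receptors was called higher with S-961. Of 8 genes tested, which were 7 ligands and receptors and *Ptprb*, an endothelial phosphatase, 0 were called higher with S-961 in either label, 3 were called lower in virgin and 2 in multipara islets, and their median log2 fold change was -0.66 and -0.14. Over all genes, the shares were 18.9% higher and 17.7% lower in virgin, and 18.2% and 19.5% in multipara islets. When counts were scaled by library totals, *Ptprb* was called higher in multipara islets, at 0.95 (adjusted p = 0.0325). *Pgf*, placental growth factor, a ligand of VEGFR1, was at 8.25, 7.45 and 8.54 CPM in virgin S-961 and 29.0 and 35.2 CPM in untreated virgin libraries, a fall by 1.99 on the log2 scale (SE 0.18, adjusted p = 9.5e-05). In multipara islets it was at 13.1, 12.7, 10.4 and 9.22 CPM with S-961 and 21.3 and 25.9 CPM without, a fall by 1.05 (SE 0.17, adjusted p = 0.00092). Every S-961 library was below every untreated one. *Nrp1*, a co-receptor for VEGF-A, fell in virgin islets by 0.89 (SE 0.28, adjusted p = 0.029), and its value in multipara islets was -0.60 (SE 0.27, adjusted p = 0.095). *Vegfc*, the ligand of the lymphatic receptor, fell in virgin islets by 1.10 (SE 0.34) and *Vegfb*, another VEGFR1 ligand, in multipara islets by 0.45 (SE 0.15). Scaled by library totals, the median of all genes in multipara islets was 0.61, so the fall of *Vegfb* depends on the scaling. Of the angiopoietin list outside the members, 4 genes were tested and 0 called.

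Among 44 endothelial genes, 3 were called higher and 7 lower in virgin islets, and 2 higher and 11 lower in multipara islets. Over all genes, 18.9% were called higher and 17.7% lower in virgin islets, and 18.2% and 19.5% in multipara islets. The median log2 fold change of the 44 genes was -0.27 and -0.28. It turned to 0.19 and 0.31 when counts were scaled by library totals, where the medians of all genes were 0.43 and 0.61. Without multipara untreated 1, the multipara counts were 0 higher and 4 lower, and without multipara S-961 4 they were 2 and 12. *Emcn*, a sialomucin of capillary and venous endothelium, fell by 0.76 (SE 0.13) in virgin and 0.74 (SE 0.12) in multipara islets, from 77.2 to 89.1 CPM in the untreated libraries to 43.0 to 55.5 CPM with S-961. *Esam*, a junction molecule, fell by 0.88 (SE 0.14) and 0.85 (SE 0.13), and *Tmem204* by 0.84 (SE 0.13) and 0.97 (SE 0.12). When counts were scaled by library totals, *Emcn* was at -0.29 and -0.17 and no longer called in either label, *Esam* at -0.42 and -0.27 and called in virgin islets, and *Tmem204* at -0.37 and -0.39 and called in both. *Nos3*, the endothelial nitric oxide synthase, rose by 1.17 (SE 0.26, adjusted p = 0.0052) in virgin and 0.80 (SE 0.24, adjusted p = 0.025) in multipara islets. Its level was 12.4 to 13.5 CPM in virgin S-961 and 7.21 to 9.35 CPM in multipara S-961 1 to 3, with multipara S-961 4 at 13.2 CPM, and 4.92 to 5.81 CPM in untreated libraries. Without multipara untreated 1, its multipara call was lost (adjusted p = 0.0774). *Gimap6*, which lymphocytes also express, was at 62.9 CPM in multipara untreated 1 and 21.1 to 23.0 CPM in the other untreated libraries, and was called lower with S-961 in multipara islets.

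Of 22 endothelial transcription factors, 4 were called higher and 3 lower in virgin, and 4 higher and 2 lower in multipara islets, with medians of 0.18 and -0.18. The shares over all genes were 18.9% higher and 17.7% lower in virgin, and 18.2% and 19.5% in multipara islets. *Erg*, an ETS factor that maintains endothelial identity, fell by 0.80 (SE 0.17) and 0.93 (SE 0.16), from 9.59 to 10.6 CPM to 4.98 to 6.37 CPM, and was at -0.33 and -0.35 and not called when counts were scaled by library totals. *Klf2* and *Klf4*, factors induced by blood flow, were called higher in both labels, *Klf4* by 0.99 (SE 0.28) and 1.93 (SE 0.28). *Klf4* is also expressed outside the endothelium, and bulk counts do not say in which cells it changed.

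Of 19 tip cell and VEGF response genes, 5 were called higher and 4 lower in each label, where 18.9% and 17.7% of all genes in virgin and 18.2% and 19.5% in multipara islets were, and without multipara untreated 1 the multipara counts were 3 and 2. *Nr4a1*, an immediate early nuclear receptor that many cell types induce, rose by 4.80 (SE 0.31) in virgin and 4.38 (SE 0.30) in multipara islets, from 15.2 to 19.4 CPM to 277 to 538 CPM. *Apln*, apelin, a peptide made by tip cells, rose by 1.01 (SE 0.34) and 1.58 (SE 0.34), the latter at an adjusted p of 0.0545 without multipara untreated 1. *Rgcc*, a cell cycle regulator of endothelium, fell by 1.14 (SE 0.23) and 0.99 (SE 0.22), and *Dll4*, the Notch ligand of tip cells, fell by 0.47 (SE 0.14) in multipara islets and had a value of -0.17 (SE 0.15) in virgin islets. Scaled by library totals, the median of all genes in multipara islets was 0.61, so the fall of *Dll4* depends on the scaling. *Esm1* moved in the direction of the falling genes of this list.

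Of 20 other angiogenic factors and inhibitors, 3 were called higher and 3 lower in virgin, and 5 higher and 2 lower in multipara islets. Of all genes, 18.9% were called higher and 17.7% lower in virgin, and 18.2% and 19.5% in multipara islets. Without multipara untreated 1 the multipara counts were 2 and 2. *Adamts1*, a protease that binds and sequesters VEGF-A, was at 67.5, 62.7 and 55.7 CPM in virgin S-961 and 58.8, 47.2, 32.4 and 67.6 CPM in multipara S-961, against 7.58 and 6.01 CPM and 4.91 and 5.61 CPM without treatment. It rose by 3.19 (SE 0.30, adjusted p = 0.000107) and 3.29 (SE 0.30, adjusted p = 8.2e-05). *Vash1*, vasohibin, an endothelial inhibitor of angiogenesis, rose by 0.77 (SE 0.27) and 1.37 (SE 0.27). *Efna1* fell by 1.63 (SE 0.22) and 1.74 (SE 0.20), and *Ccn2* by 1.08 (SE 0.21) and 0.71 (SE 0.20).

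*Vegfa* is a classic target of the hypoxia-inducible factors, and 21 other genes of that pathway were tested. Of these, 4 were called higher and 5 lower in virgin, and 2 higher and 5 lower in multipara islets, with medians of -0.26 and -0.05. Among all genes tested, 18.9% were called higher and 17.7% lower in virgin, and 18.2% and 19.5% in multipara islets. *Arnt*, the partner subunit of the factors, rose by 1.11 (SE 0.16) and 1.18 (SE 0.16), and *Kdm3a*, a demethylase, by 0.56 (SE 0.11) and 0.52 (SE 0.11). *Hif1a*, the oxygen-regulated subunit, rose in virgin islets by 0.80 (SE 0.17, adjusted p = 0.00505), and its value in multipara islets was 0.43 (SE 0.16, adjusted p = 0.0613). The target *Slc2a1*, a glucose transporter, rose in virgin islets by 0.97 (SE 0.22, adjusted p = 0.00553), and its value in multipara islets was 0.14 (SE 0.20). *Vhl*, which marks the factors for degradation, fell by 0.44 (SE 0.12) and 0.43 (SE 0.12), and was at 0.024 and 0.15 and not called when counts were scaled by library totals. The hypoxia target *Higd1a* fell by 2.33 (SE 0.25) and 1.51 (SE 0.23), from 17.5 to 20.5 CPM to 3.05 to 7.85 CPM. *Ndrg1* fell by 1.93 (SE 0.27) and 1.11 (SE 0.25), and *Ankrd37* by 1.64 (SE 0.27) and 1.56 (SE 0.25). *Pgk1* and *Bnip3*, further targets, were not called, at 0.33 (SE 0.30) and 0.13 (SE 0.20) in virgin and 0.14 (SE 0.28) and -0.040 (SE 0.19) in multipara islets. When counts were scaled by library totals, *Higd1a*, *Ndrg1* and *Ankrd37* were at -1.87, -1.46 and -1.18 in virgin and -0.93, -0.49 and -0.97 in multipara islets, and *Ndrg1* was no longer called in multipara islets.

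**Figure D4:**
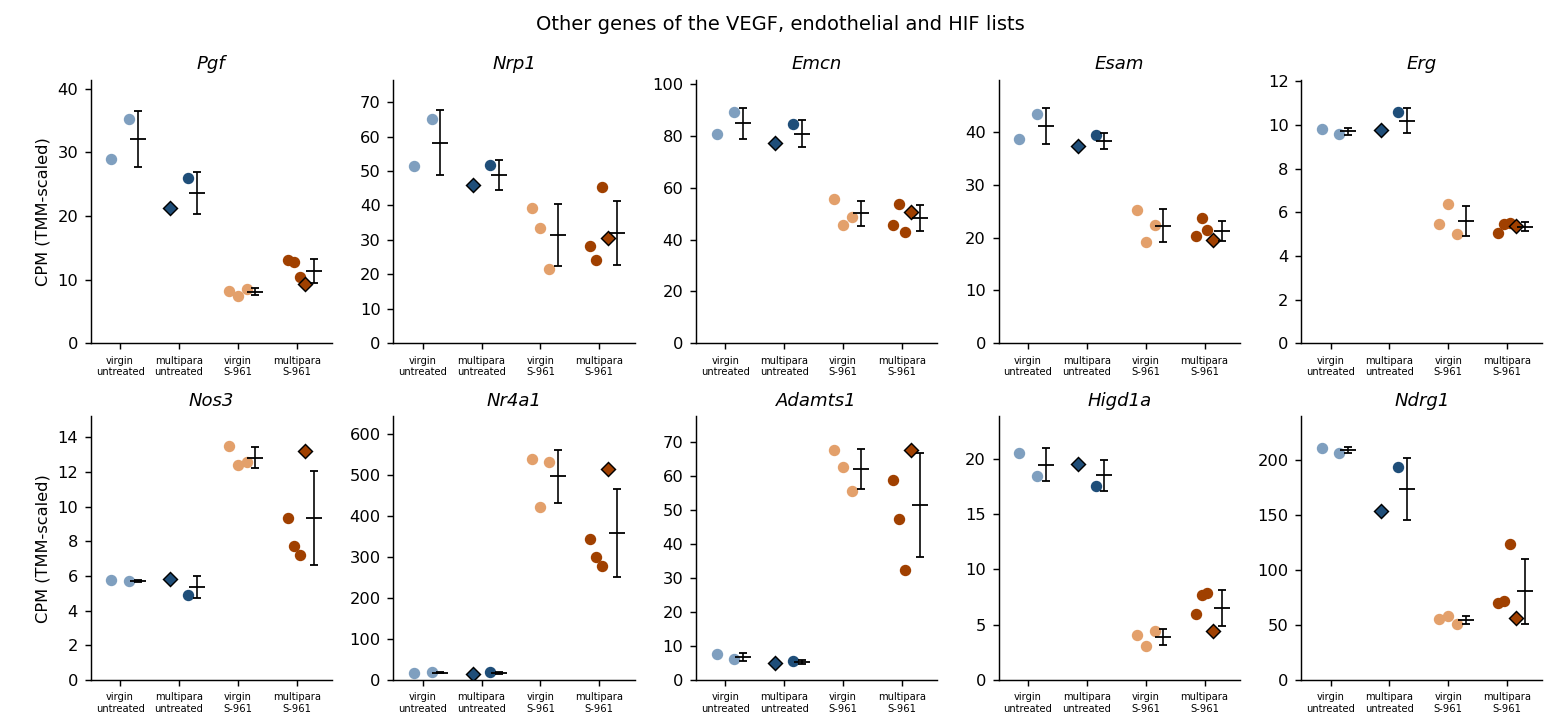
CPM by library of 10 genes from the VEGF, endothelial, angiogenic and hypoxia lists, drawn as in the plot of the members. *Pgf*, *Nrp1*, *Emcn*, *Esam*, *Erg*, *Higd1a* and *Ndrg1* are lower and *Nos3*, *Nr4a1* and *Adamts1* higher in all 7 S-961 libraries than in all 4 untreated ones. Within a label, S-961 and untreated libraries did not overlap for 68.4% of all genes in virgin and 49% in multipara islets. The share for all 7 against all 4 libraries was not determined.

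Of 13 pericyte and smooth muscle markers, 0 were called higher and 3 lower in virgin, and 2 higher and 1 lower in multipara islets, with medians of 0.06 and 0.00. *Rgs5*, a pericyte marker, fell by 0.43 (SE 0.15) in virgin islets. Scaled by library totals, the median of all genes in virgin islets was 0.43, so this fall depends on the scaling. *Higd1b* was called lower in both labels and *Tagln* in virgin islets, while *Notch3* and *Acta2* were called higher in multipara islets. Of 12 basement membrane genes, 1 was called higher and 2 lower in virgin, and 4 higher and 0 lower in multipara islets, or 1 and 0 without multipara untreated 1. The shares over all genes were 18.9% higher and 17.7% lower in virgin and 18.2% and 19.5% in multipara islets. The collagen IV genes *Col4a1* and *Col4a2* were not called in either label. Of 10 genes of inflamed endothelium, 3 were called higher and 0 lower in virgin islets. In multipara islets 3 were called higher and 1 lower, and the medians were 0.35 and -0.26. *Sele*, an adhesion molecule on this list, was called higher in both labels from levels of 0 to 0.063 CPM in untreated libraries and 0.194 to 1.16 CPM with S-961. *Vcam1*, also on it, was called lower in multipara islets, at 3.91 to 32.7 CPM in untreated libraries and 1.73 to 6.2 CPM with S-961. No gene of any vascular list was called between multipara and virgin islets with all libraries, or in the interaction.

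**Figure D5:**
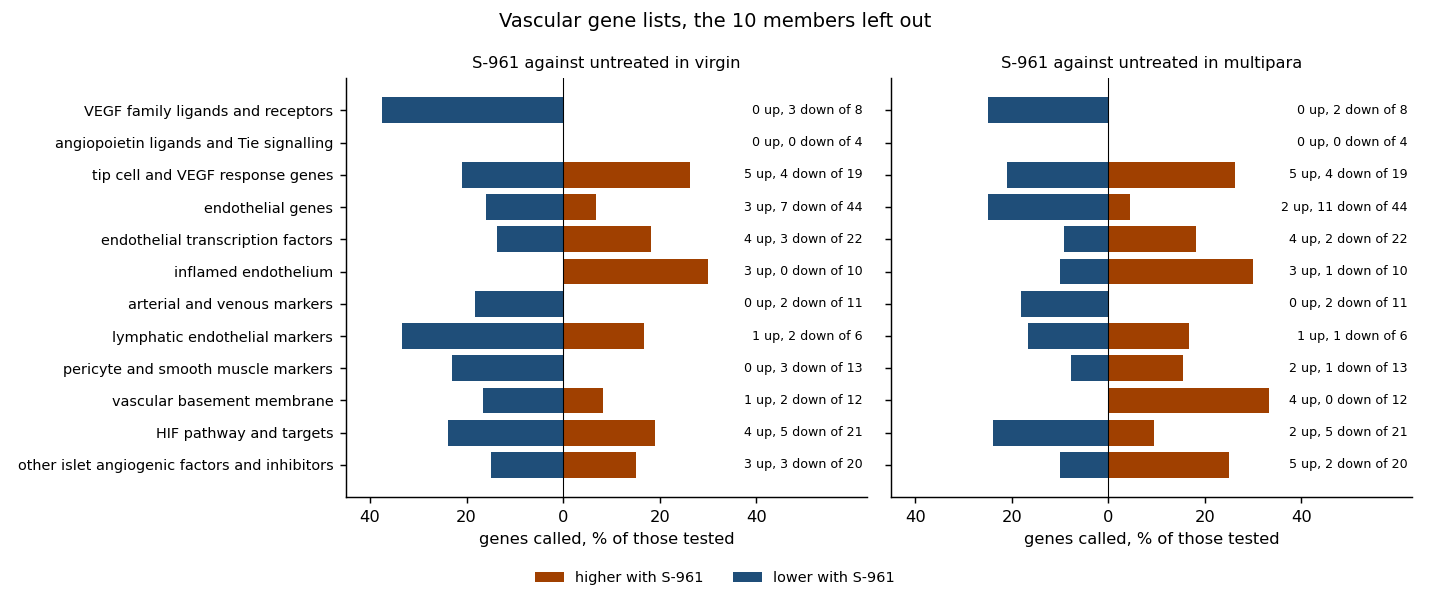
Share of the tested genes of 12 vascular lists called higher (right) or lower (left) with S-961 in virgin and multipara islets, in percent, with the counts at the right. Among all genes, 18.9% and 17.7% were called higher and lower in virgin and 18.2% and 19.5% in multipara islets.

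Within groups, several members were highest or lowest in the same library, which is given as a description with no test. Virgin S-961 1 was the highest of its group for 7 members (*Kdr*, *Flt1*, *Pecam1*, *Cdh5*, *Esm1*, *Tek* and *Tie1*), and its endothelial list summed to 838 CPM against 724 and 696 in the others. Multipara S-961 2 was the lowest of its group for *Kdr*, *Flt1*, *Cdh5*, *Tek* and *Tie1*, with an endothelial sum of 675 CPM against 756 to 769. Other members did not share this order. *Plvap* and *Angpt2* were highest in virgin S-961 3, and *Vegfa* was lowest in virgin S-961 1. In multipara S-961, *Vegfa*, *Pecam1*, *Esm1* and *Tek* were highest in library 3 and the other 6 members in library 4. In the untreated groups, library 2 was the higher for 9 members in virgin mice, all but *Tek*, and for 9 in multipara mice, all but *Pecam1*.

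The genes most like the mean profile of the 8 endothelial members, all but *Vegfa* and *Angpt2*, were *Srr*, *Snx21*, *Trappc9*, *Ppp1r13b*, *Ptpra*, *Robo4*, *Inpp5e* and *Rgs5*. Their root mean square difference in centred log2 CPM over the 11 libraries was 0.061 to 0.083, where the profile itself deviated by 0.224, among 12585 genes. *Robo4*, an endothelial guidance receptor, and *Rgs5* were on the gene lists. The genes nearest *Vegfa* were *Guf1*, *Trim23*, *Ftx*, *Uggt2*, *Zscan26*, *Mospd2*, *Agfg1* and *Mier3*, at 0.082 to 0.125 against a deviation of 0.493, and none was on a vascular list. For *Angpt2* the nearest gene, *Taf5l*, was at 0.113 against 0.216.

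Other genes overlap 4 members on the opposite strand. The library kit keeps strand, but whether counting used it was not given in the sources used here. *Mcph1*, which overlaps *Angpt2*, was at 5.25 to 11.7 CPM with S-961 and 5.55 to 6.30 CPM without, where it was below *Angpt2* in each library. It rose with S-961 in virgin islets by 0.88 (SE 0.29, adjusted p = 0.0348), so both the level and the fold of *Angpt2* are uncertain. *Gtpbp3*, which overlaps *Plvap*, was at 13.7 to 18.6 CPM, and *Gm29682*, which overlaps *Cdh5*, was at 0 in every library.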

How the data were processed

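Poly(A) RNA of islets was made into strand-specific libraries. The authors deposited, per library, expected counts per gene without normalization, and the submitters' processing notes name STAR, RSEM and GRCm38 (mm10). All values of the 10 members were whole, and other expected counts were rounded. All 55536 identifiers and symbols matched GENCODE M21, which gave annotation and lengths.

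Tests used edgeR 4.0.16 in R 4.3.3: TMM factors, filterByExpr (minimum count 10, minimum total 15), quasi-likelihood F-tests and Benjamini-Hochberg adjustment over all genes tested, threshold 0.05. The parity comparisons were fitted on their own libraries, the S-961 and interaction comparisons on all 11. DESeq2 1.42.0 was an alternative. The fits were tested on simulated data. Log2 CPM used a prior count of 2.

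The members, the 20 gene lists and the tests were chosen with earlier results of these data known. Named were all members, per list and comparison at most 4 called genes per direction by size of change, the 3 with the highest mean CPM, and the 8 nearest genes by profile. *Gzmk*, *Mcph1*, *Gtpbp3* and *Gm29682* were named for their position. Promoter sequences came from RefSeq, GRCm38.p6, and were found for 6 of 10 members.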

Additional observations from a re-analysis of the deposited data

How the results depend on the processing

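Over the alternatives tried, *Vegfa* was higher and *Esm1* lower with S-961 in both labels, and both passed the test under every one but the acinar score as covariate. Scaling by library totals was added after seeing the data. No alternative called a member in the parity or interaction comparisons. The numbers of called genes moved as follows. In the parity comparison with S-961 the count of 0 became 369 by DESeq2's Wald test, 346 with the replicate number as a block and 0 to 525 without 1 library (525 without multipara S-961 4). Without treatment it became 56 by DESeq2, 3 with no filter on low counts, 1 with the stricter filter and 0 to 1749 without 1 library. The 1749 rest on multipara untreated 1 alone against the virgin pair. Leaving out an untreated library left its group with 1, assumed to vary like the other groups of the fit. In the interaction it became 79 by DESeq2, 4 with no filter, 34 with the replicate block, 1 with the endothelial score as covariate and 0 to 45 without 1 library. For S-961, 6570 genes in virgin and 6766 in multipara islets became 4026 and 3468 with the endothelial score, 0 and 0 with the acinar score, and 3053 to 6119 and 3618 to 7450 without 1 library. The members called became 2 with the endothelial score and 2 to 4 without 1 library in virgin islets, 5 with total count scaling in multipara islets (4 higher, 1 lower; 2 without any 1 library), 4 in virgin islets with that scaling but 3 higher and 1 lower in place of 1 and 3, and 0 with the acinar score in both. The replicate numbers did not pair the samples by the correlations of their deviations (0.059, 0.013 and 0.094 for numbers 1 to 3 with S-961, 0.28 and 0.28 without treatment), and under the block 4 and 2 members were called with S-961 as before.

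Signs turned for members that were not called with TMM scaling, and for *Tie1* in virgin islets. With total count scaling *Plvap* turned and was called in both labels. The log2 fold changes that turned were, with total count scaling, for S-961 in virgin islets *Kdr* 0.10, *Flt1* 0.43, *Cdh5* 0.40, *Plvap* 0.46, *Tek* 0.12 and *Tie1* 0.00056, in multipara islets *Kdr* 0.21, *Flt1* 0.37, *Pecam1* 0.28, *Cdh5* 0.48, *Plvap* 0.51 and *Tie1* 0.30, and in the interaction *Kdr* 0.10, *Cdh5* 0.083, *Plvap* 0.046, *Esm1* 0.073 and *Angpt2* 0.10. With the endothelial score they were, for parity with S-961, *Cdh5* -0.043, *Esm1* -0.049 and *Tie1* -0.020, for S-961 in virgin islets *Flt1* 0.29, *Cdh5* 0.45, *Plvap* 0.12 and *Angpt2* -0.019, in multipara islets *Flt1* 0.12, *Pecam1* 0.17, *Cdh5* 0.46, *Plvap* 0.058 and *Angpt2* -0.043, and in the interaction *Kdr* 0.016 and *Cdh5* 0.008. With the acinar score they were, for parity with S-961, *Plvap* 0.005, *Esm1* -0.090 and *Angpt2* 0.11, for S-961 in virgin islets *Flt1* 0.44 and *Plvap* 0.54, in multipara islets *Flt1* 0.27, *Plvap* 0.50 and *Tek* -0.80, and in the interaction *Angpt2* 0.047. With DESeq2's size factors or Wald test, *Tie1* was at -0.001 for parity with S-961 and *Plvap* at 0.017 for S-961 in virgin islets. Under the replicate block, *Cdh5* was at -0.015 and *Tie1* at -0.020 for parity with S-961. With TMM factors set without insulin, glucagon and acinar genes, *Plvap* was at 0.023 for S-961 in virgin islets and *Kdr* at 0.002 in the interaction. With no filter they were 0.017 for *Plvap* and, in the interaction, 0.019 for *Kdr*, 0.000 for *Cdh5* and 0.013 for *Angpt2*. Without 1 library, parity with S-961 ran from -0.021 to 0.24 for *Cdh5*, -0.12 to 0.13 for *Esm1* and -0.040 to 0.059 for *Tie1*. Parity without treatment ran from -0.073 to 0.18 for *Vegfa*, -0.28 to 0.001 for *Flt1*, -0.29 to 0.15 for *Pecam1*, -0.083 to 0.29 for *Cdh5*, -0.22 to 0.092 for *Plvap*, -0.18 to 0.28 for *Esm1*, -0.29 to 0.018 for *Angpt2* and -0.43 to 0.10 for *Tek*. S-961 ran from -0.17 to 0.10 for *Flt1*, -0.25 to 0.12 for *Cdh5* and -0.15 to 0.16 for *Plvap* in virgin islets, and from -0.19 to 0.048 for *Cdh5* and -0.21 to 0.36 for *Tek* in multipara islets. The interaction ran from -0.15 to 0.11 for *Kdr*, -0.22 to 0.15 for *Cdh5*, -0.23 to 0.078 for *Plvap*, -0.29 to 0.21 for *Esm1* and -0.18 to 0.17 for *Angpt2*. The cause of these turns was not tested.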
